A study of Mus musculus with 45 samples.

Results

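The Hox genes of the mouse were followed through the conversion of fibroblasts to muscle cells and compared with primary myoblasts. Members were all genes whose symbol is Hoxa, Hoxb, Hoxc or Hoxd followed by a number, which gave 39 of 35675 genes. They lie in 4 clusters (GRCm38): 11 Hoxa genes on chromosome 6, 10 Hoxb genes on chromosome 11 (96194316 to 96368256), 9 Hoxc genes on chromosome 15 (102921103 to 103036852) and 9 Hoxd genes on chromosome 2 (74668310 to 74765142). Of these, 38 had enough reads to be tested. The exception was Hoxb1, with at most 3 reads in any of the 45 libraries.

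All 15 groups of 3 bulk RNA-seq libraries carried the genotype Tg:Pax7-nGFP/C57BL6;DBA2, whose transgene reports Pax7, which marks muscle stem cells, as nuclear GFP. Untreated mouse embryonic fibroblasts (MEFs) were the start. MEFs expressing MyoD, the transcription factor that drives muscle conversion, from a doxycycline (Dox) switch were collected after 2, 4, 6, 8 and 10 days, with Dox alone (called myotubes in the labels) or with Dox and the small molecules abbreviated F/R/C (called muscle fibers and progenitor cells). Induced myogenic progenitor cells (iMPCs) had been given 13 days of Dox with F/R/C and were grown on in F/R/C medium. They were profiled in bulk and after FACS purification of Pax7-GFP+ cells. Primary myoblasts from skeletal muscle were likewise profiled in bulk and as FACS-purified Pax7-GFP+ cells. The labels do not say whether replicates came from separate animals or cultures, or which muscles gave the myoblasts, so the p-values measure the spread between these libraries, which may be technical in part.

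Hox proteins are homeodomain transcription factors that give cells along the head-to-tail axis, and along the limb, their positional identity. Within a cluster the genes are numbered from the 3′ end, and low-numbered paralogs are used further forward and earlier in the embryo than high-numbered ones. Paralogs 9 to 13 of Hoxa and Hoxd pattern the limb from its base to the digits. Fibroblasts and muscle stem cells taken from different body regions are known to keep region-specific Hox expression in culture, so the set of active Hox genes can mark where a cell came from.

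Library totals ran from 15.6 M to 36.3 M estimated reads. The labelled cell types were checked against marker genes. The summed level of 9 fibroblast genes ran from 6626 to 7785 in MEFs and from 202 to 346 in bulk myoblasts, in TPM divided by each library's TMM factor (scaled TPM, the level used throughout). In MEFs and in MyoD alone up to day 8, Pax7, Myf5 and Calcr, which mark muscle progenitors, had at most 3 reads in every library. The rest of the progenitor list, Cdh15, Heyl and Chodl, was higher with MyoD alone than in MEFs. Cdh15 averaged 2.12 scaled TPM in MEFs and 559 at day 2, and Heyl 0.209 and 32.8. Chodl averaged 0.0413 in MEFs and 10.9 at day 6. Summed differentiated muscle genes were at 685 in bulk myoblast replicate 3, against 22335 and 10137 in the other two. In MEFs, the time course and both iMPC groups, replicate 3 carried Y-linked transcripts while replicates 1 and 2 carried Xist. The myoblast groups did not follow that numbering. Summed endothelial markers stayed at or under 9.67 and epithelial markers at or under 58.5 in every library. Schwann and neural markers reached 168, in replicate 1 of day 4 with F/R/C, where Tubb3 alone was at 167. In sorted iMPCs they were at 118, 10.7 and 17.9 in replicates 1, 2 and 3, with Tubb3 at 116 in replicate 1.

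The start regions of 3 members are shown because these genes carried the contrasts below: Hoxd13 and Hoxd8, members of a single cluster that moved in opposite directions with F/R/C, and Hoxa5, 1 of the anterior Hoxa genes that fell. Each line gives the 250 bases before the RefSeq transcription start (GRCm38.p6), 5′ to 3′ on the gene's strand. Capitals mark CAGCTG, an E-box of the kind bound by MyoD.
Hoxd13, chr2:74667975-74668224, plus strand: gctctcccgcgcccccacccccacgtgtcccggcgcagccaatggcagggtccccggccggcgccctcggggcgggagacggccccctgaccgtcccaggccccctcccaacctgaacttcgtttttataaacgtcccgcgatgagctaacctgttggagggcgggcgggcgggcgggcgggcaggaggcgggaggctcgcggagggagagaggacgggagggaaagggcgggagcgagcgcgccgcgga
Hoxd8, chr2:74704365-74704614, plus strand: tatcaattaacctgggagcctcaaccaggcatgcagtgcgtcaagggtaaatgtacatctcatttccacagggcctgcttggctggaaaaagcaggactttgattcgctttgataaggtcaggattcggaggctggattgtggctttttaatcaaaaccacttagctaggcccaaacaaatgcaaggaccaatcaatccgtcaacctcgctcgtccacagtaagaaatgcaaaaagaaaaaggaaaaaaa
Hoxa5, chr6:52204588-52204837, minus strand: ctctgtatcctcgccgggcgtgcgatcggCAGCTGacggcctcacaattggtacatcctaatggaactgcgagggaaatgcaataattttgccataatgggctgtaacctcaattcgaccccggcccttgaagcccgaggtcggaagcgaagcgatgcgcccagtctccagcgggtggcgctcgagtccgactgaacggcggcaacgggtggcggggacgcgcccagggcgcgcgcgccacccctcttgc

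RefSeq windows were found for 22 of the 39 members, in 24 windows. The Hoxd13 window was rich in CpG, the dinucleotide of CpG islands, with 31 of them and a GC content of 74.4%. Hoxa5 had 28 CpGs and 63.6% GC. Hoxd8 had 6 CpGs, the median over all promoters of that length, and 44.4% GC. CAGCTG, which reads the same on both strands, was in 3 of the 24 Hox windows and in 13.0% of 32851 promoters. TGACGTCA, the full cAMP response element, was in none of the 24 and in 1.55% of all promoters, and TGATNNAT on either strand, a site for Hox proteins with their Pbx partners, was in 4 of the 24 and in 7.68% of all promoters.

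MEFs had the highest summed Hox level of the 15 groups, at 460 ± 89.0 scaled TPM (SD, n = 3). The sum was 284 ± 23.1 after 2 days of MyoD alone and 304 ± 41.0 after 10 days. With F/R/C it was 279 ± 18.8 at day 2, 209 at day 4, 183 at day 6, 164 at day 8 and 139 ± 10.4 at day 10. Bulk iMPCs were at 137 ± 12.8, sorted iMPCs at 154 ± 33.7, bulk myoblasts at 177 ± 14.0 and sorted myoblasts at 135 ± 12.6. All 3 day 10 F/R/C libraries, at 132 to 151, lay below all 3 with MyoD alone, at 268 to 348. In bulk RNA, fewer cells of a type and less RNA per cell cannot be told apart.

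**Figure D1:**
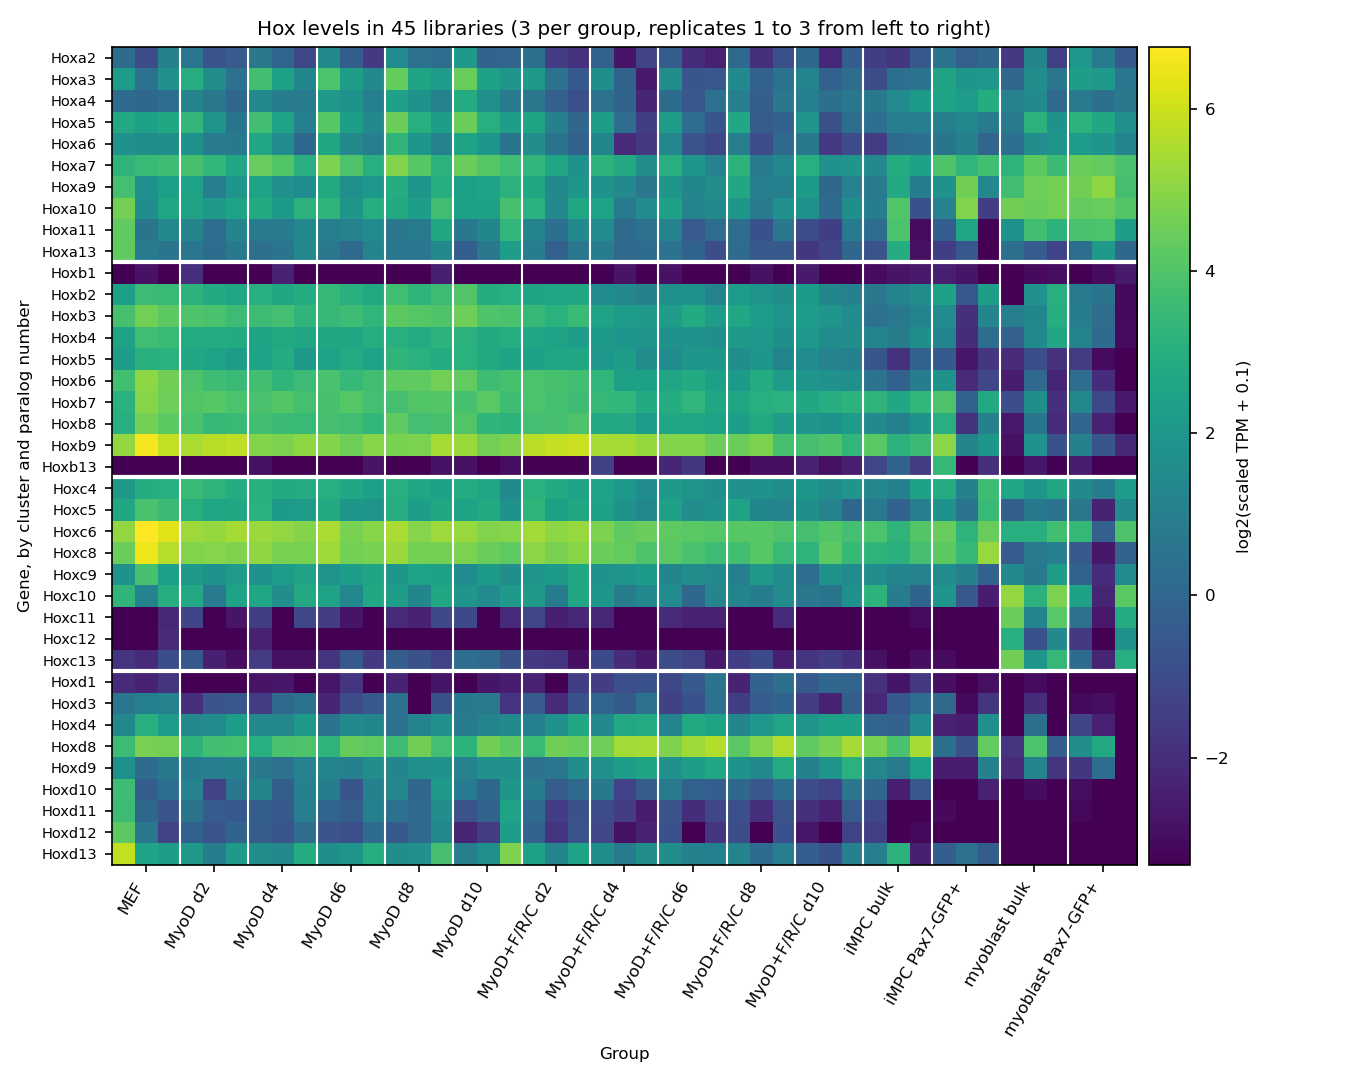
Level of 38 Hox genes (rows, by cluster and paralog number) in each of the 45 libraries (columns, by group, replicates 1 to 3 from left to right), as log2 of scaled TPM with 0.1 added. Hoxb9, Hoxc6 and Hoxc8 are the brightest rows in MEFs, at group means of 63.6, 72.9 and 54.0, and Hoxc11 to Hoxc13 are visible mainly in the myoblast columns.

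Central trunk paralogs led the fibroblast profile in 2 of the 3 MEF libraries. The 3 highest Hox genes by MEF group mean were Hoxc6 (72.9), Hoxb9 (63.6) and Hoxc8 (54.0 scaled TPM), all of which specify thoracic levels. Paralogs 4 to 8 together held 57.3 ± 18.7% of the summed Hox level in MEFs. Their share was lowest in MEF replicate 1, at 35.7%, where paralogs 9 to 13 held 57.6%, and it reached 68.5% in the other two. Paralogs 4 to 8 held 58.6 ± 8.33% after 10 days of MyoD alone and 69.8 ± 2.48% after 10 days with F/R/C. In bulk myoblasts they held 29.2 ± 12.8%, and paralogs 9 to 13 held 63.5 ± 15.2%. By cluster, Hoxa genes held 45.6 ± 12.7% of the summed level in bulk myoblasts and 70.2 ± 19.2% in sorted ones, against 13.2 ± 7.15% in day 10 F/R/C cells.

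The number of members above 3 reads in every library was 34 in MEFs, 32 to 33 under MyoD alone, 28 to 33 with F/R/C, 29 in bulk iMPCs, 23 in sorted iMPCs, 23 in bulk myoblasts and 18 in sorted myoblasts. In bulk myoblasts, 7 members had at most 3 reads in every library: Hoxb1, Hoxb13, Hoxd1, Hoxd10, Hoxd11, Hoxd12 and Hoxd13.

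The MEF libraries differed from each other at the digit end of the axis. Hoxd13, which patterns digits and the genital tubercle, was at 57.8, 5.87 and 4.92 scaled TPM in MEF replicates 1, 2 and 3. Replicate 1 stood far above the others. Hoxd10 to Hoxd13 summed to 100.4, 8.97 and 6.97, Hoxa13 was at 19.7, 1.61 and 1.42, and Hoxa11 at 19.8, 1.40 and 2.45. The same library was high for transcripts beside these genes: Evx2, the homeobox gene next to Hoxd13, was at 1.83, 0.114 and 0.108, and the antisense transcript Hoxa11os at 44.3, 3.60 and 4.82. Tbx5, the forelimb T-box gene, was at 10.7, 2.86 and 3.53. Trunk genes ran the other way, with Hoxb9 at 34.4, 98.9 and 57.4 and Hoxc8 at 22.0, 89.9 and 50.3. Replicate 1 was the lowest for both.

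The first question was how Hox levels stood shortly after MyoD induction. A member was called when edgeR's quasi-likelihood test gave a Benjamini-Hochberg adjusted p under 0.05 over all 17325 tested genes and the log2 fold change was at least 1 in size. After 2 days of MyoD alone against MEFs, 1 Hox gene rose and 2 fell of the 38 tested, where 22.4% of all tested genes were called, 12.3% higher and 10.1% lower. Hoxd13 fell to 4.11, 1.81 and 4.34 scaled TPM, below all 3 MEF libraries, a log2 fold change of −2.76 (SE 1.04, edgeR adjusted p = 0.0376). Without MEF replicate 1 this was −0.67 (edgeR adjusted p = 0.65). Hoxd1 was also called lower, yet it had 0 reads in each of the 3 MyoD libraries and 2 to 3 in MEFs, so no fold is given.

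With F/R/C for 2 days against MEFs, 0 Hox genes rose and 2 fell, where 20.4% of all tested genes were called, 11.5% higher and 8.93% lower. Both belong to the digit end of the Hoxd cluster. Hoxd12 was at 0.823, 0.192 and 0.495 scaled TPM against 18.6, 1.48 and 0.321 in MEFs, a log2 fold change of −3.74 (SE 1.39, edgeR adjusted p = 0.0376). Hoxd11 was at 0.989, 0.252 and 0.469 against 11.8, 0.930 and 0.539, a log2 fold change of −2.99 (SE 1.06, edgeR adjusted p = 0.0291). The groups overlapped for both genes, and without MEF replicate 1 the values were −0.82 (edgeR adjusted p = 0.68) and −0.68 (edgeR adjusted p = 0.67). The median log2 fold change over the Hox genes was −0.51 for MyoD alone and −0.64 with F/R/C at day 2, each beside 0 over all tested genes.

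By day 10 of MyoD alone, 1 Hox gene was higher and 2 were lower than in MEFs, where 18.9% of all tested genes were called, 14.3% higher and 4.64% lower. Hoxa4, a neck-level gene, was at 7.28, 3.22 and 1.65 scaled TPM, above 1.06, 0.956 and 1.16 in MEFs in every library, a log2 fold change of 1.88 (SE 0.56, edgeR adjusted p = 0.0107). Without replicate 1 of day 10 it was 1.16 (edgeR adjusted p = 0.13). Hoxc8 was at 27.0, 21.8 and 18.8 against 22.0, 89.9 and 50.3, a log2 fold change of −1.29 (SE 0.44, edgeR adjusted p = 0.0277). Hoxc6 was at 36.7, 28.6 and 30.2 against 34.5, 108 and 76.0, a log2 fold change of −1.22 (SE 0.45, edgeR adjusted p = 0.0388). MEF replicate 1 overlapped the MyoD libraries for both, and without MEF replicate 2, the highest, the values were −0.70 (edgeR adjusted p = 0.28) and −0.86 (edgeR adjusted p = 0.2).

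With F/R/C for 10 days, 16 Hox genes were lower and 1 was higher than in MEFs, where 34.8% of all tested genes were called, 15.8% lower and 19% higher. The member that was higher was Hoxd1, at least 4.73-fold (edgeR adjusted p = 0.0102). The falls took in 3 Hoxa, 5 Hoxb, 4 Hoxc and 4 Hoxd genes, and the median over the Hox genes was −1.51, beside 0.08 over all genes. Hoxc6 was at 13.7, 16.7 and 13.4 and Hoxb6 at 3.73, 3.28 and 3.19 scaled TPM, below every MEF library. The largest falls were at the digit end. Hoxd12 was at 0.0516, 0 and 0.320 (log2 fold change −5.56, SE 1.55, edgeR adjusted p = 0.00368). Hoxd13 was at 0.703, 0.479 and 1.99 (−4.31, SE 1.12, edgeR adjusted p = 0.00197). Hoxd13 did not overlap MEFs. For Hoxd12, F/R/C replicate 3, with 14 reads, was nearly level with MEF replicate 3, with 7 reads, so the groups were not clearly separate.

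Hoxd11 (−4.20, SE 1.14, edgeR adjusted p = 0.00267), Hoxa13 (−3.73, SE 1.15, edgeR adjusted p = 0.00702) and Hoxa11 (−3.19, SE 1.26, edgeR adjusted p = 0.0335) completed the 5 largest falls. None of these 5 was called without MEF replicate 1, where they were −2.58 (Hoxd12), −2.13 (Hoxd13), −1.81 (Hoxd11), −1.15 (Hoxa13) and −0.97 (Hoxa11). The total was then 11 Hox genes, as it was without replicate 2 or replicate 3 of the F/R/C group. Summed fibroblast genes were at 1199, 474 and 2253 in the F/R/C libraries and at 6626 to 7785 in MEFs. Their part in the falls was not tested.

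**Figure D2:**
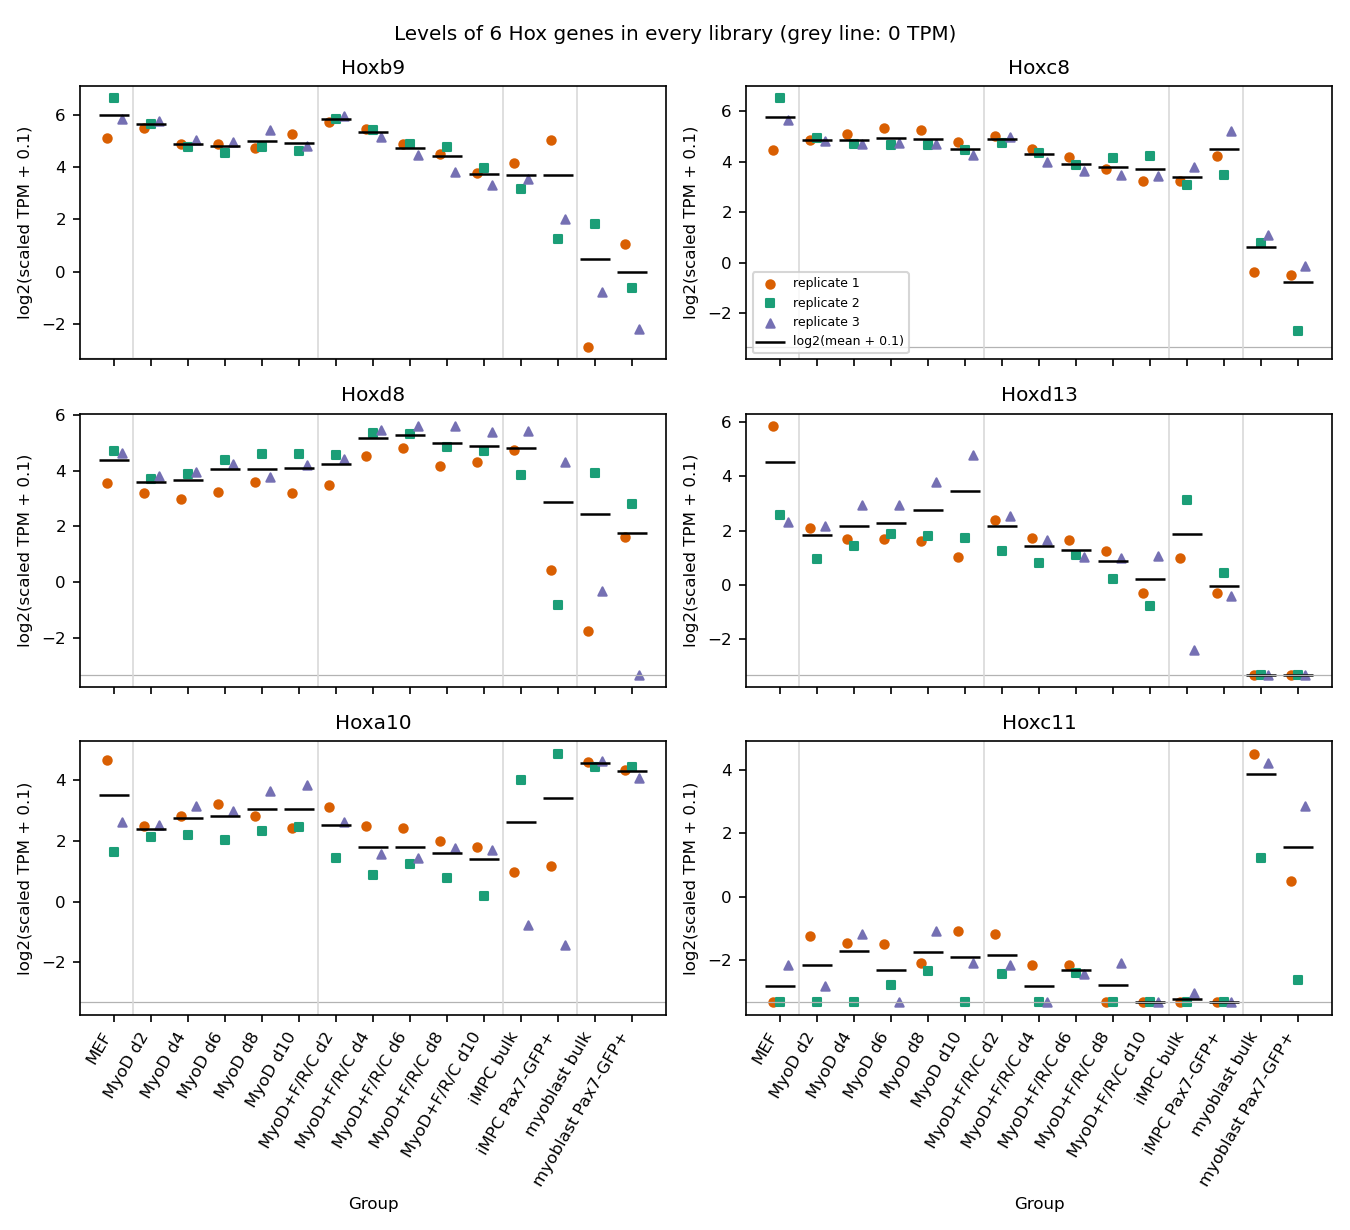
Levels, as log2 of scaled TPM with 0.1 added, of Hoxb9, Hoxc8, Hoxd8, Hoxd13, Hoxa10 and Hoxc11 in each library of the 15 groups, 1 point per library with a bar at the group mean and a grey line at 0 TPM. Hoxb9 with F/R/C runs from 52.8 to 62.0 scaled TPM at day 2 to 9.89 to 15.7 at day 10, and MEF replicate 1 lies apart from the others for Hoxd13.

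The main question of the time course was what F/R/C changed at a matched day of MyoD. At day 2, 0 of the 38 Hox genes were called in either direction by edgeR, where 4.93% of all tested genes were (2.13% higher, 2.8% lower), and 2 Hox genes had an unadjusted p under 0.05. DESeq2 also called 0. At day 10, 10 Hox genes were lower with F/R/C and 1 was higher, where 23.3% of all tested genes were called, 13.4% lower and 9.91% higher. Over the mean of the 5 days, 13 were lower and 2 were higher, where 22.1% of all tested genes were called, 10.5% lower and 11.6% higher. The median over the Hox genes was −1.43 at day 10 and −0.81 over the mean, beside −0.07 and −0.03 over all genes.

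The falls were uneven between the clusters. Over the mean of the 5 days, Hoxa2 to Hoxa7 fell, and 0 of the 4 posterior Hoxa genes, Hoxa9 to Hoxa13, were called. In Hoxb, 3 of 9 fell: Hoxb2, Hoxb3 and Hoxb6. In Hoxc, 0 of 9 were called, although all 9 fold changes were negative. Hoxc11 had at most 8 reads and Hoxc12 at most 1 in any time-course library, so their signs carry little. In Hoxd, Hoxd11, Hoxd12 and Hoxd13 fell while Hoxd1 and Hoxd8 rose. The members named here as lower and not given in full below fell by 1.08 to 1.46 on the log2 scale (edgeR adjusted p from 1.10e-05 to 0.0176).

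Hoxa3, which patterns neck and throat structures, showed the largest fall of the mean comparison. With MyoD alone it was at 7.58, 3.03 and 1.26 scaled TPM at day 2 and at 21.1, 5.41 and 3.71 at day 10. With F/R/C it was at 4.32, 1.26 and 0.581 and then at 2.23, 0.747 and 1.11. At day 10 the groups did not overlap, and over the 5 days Hoxa3 was lower with F/R/C in 15 of 15 pairs of libraries of the same day and replicate number, a log2 fold change of −2.14 (SE 0.43, edgeR adjusted p = 6.01e-05). Such pairs, here and below, are 3 replicate numbers seen on 5 days and cannot be counted as 15 independent pairs.

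Hoxa5, which acts in lung and cervicothoracic skeleton, was at 22.3, 7.79 and 4.75 scaled TPM at day 10 of MyoD alone and at 3.73, 0.469 and 1.15 with F/R/C. The groups did not overlap, and the mean over 5 days fell by 1.76 on the log2 scale (SE 0.44, edgeR adjusted p = 0.000815). Hoxa6 was at 5.72, 3.79 and 1.36 against 1.59, 0.223 and 0.410 at day 10, where replicate 3 of MyoD alone overlapped replicate 1 with F/R/C. Its mean over 5 days fell by 1.59 on the log2 scale (SE 0.37, edgeR adjusted p = 0.000465). Each of Hoxa2 to Hoxa7 was lower with F/R/C in 15 of 15 same-day, same-number pairs. The Hoxa cluster sum averaged 41.0 at day 2 and 74.6 at day 10 with MyoD alone, and 30.6 and 18.2 with F/R/C. The Hoxb sum averaged 127 at day 2 and 40.7 at day 10 with F/R/C.

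Replicate 1 stood apart in this block of genes. The summed level of Hoxa2 to Hoxa7 was highest in replicate 1 in 10 of 10 time-course groups and was over 2 times either of the others in 8. At day 10 it was 82.3, 38.0 and 24.9 scaled TPM with MyoD alone and 18.3, 6.09 and 8.72 with F/R/C, so the F/R/C libraries lay below those of MyoD alone in every replicate. With the replicate 1 libraries of all 10 groups left out, an alternative chosen after these levels were seen, the mean comparison still called 11 lower and 1 higher, with Hoxa3 at −2.18 and Hoxa5 at −2.12. The member still called higher was Hoxd1, and Hoxd8 was not called there. At day 10 this alternative called 4 lower and 1 higher.

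**Figure D3:**
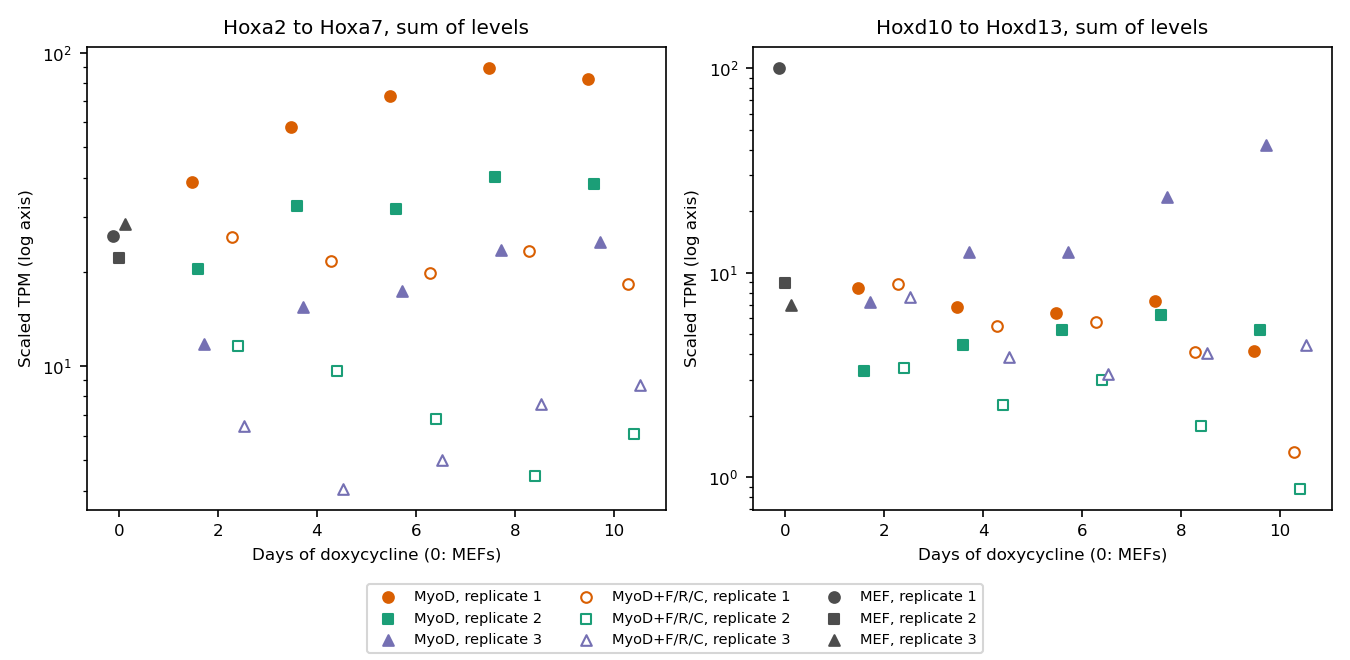
Summed level of Hoxa2 to Hoxa7 (left) and Hoxd10 to Hoxd13 (right) in scaled TPM on log axes, against days of doxycycline, 1 point per library, shifted slightly sideways. MEFs are grey at day 0, MyoD alone is filled, F/R/C is open, and marker shape gives the replicate. On the left every open point lies below the filled point of its day and replicate, and at day 10 replicate 1 runs from 82.3 to 18.3.

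The Hoxd cluster moved in both directions. Hoxd8, a trunk-level gene, was at 9.18 to 13.8 scaled TPM at day 2 of MyoD alone and at 9.17, 24.0 and 18.4 at day 10. With F/R/C it was at 11.1 to 23.7 at day 2, 28.2, 39.6 and 48.1 at day 6 and 19.8, 26.1 and 41.7 at day 10. Hoxd8 was higher with F/R/C in 15 of 15 same-day, same-number pairs, with means over 5 days of 30.8 against 14.9 and a log2 fold change of 1.05 (SE 0.42, edgeR adjusted p = 0.0317). It is given here as 1 of the 2 members called higher. Its call was lost with the replicate 1 libraries of all 10 time-course groups left out. At day 10 alone the 2 groups overlapped and the difference was not called (edgeR adjusted p = 0.417).

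Its neighbours Hoxd4 and Hoxd9 had log2 fold changes of 0.94 (SE 0.44, edgeR adjusted p = 0.0615) and 0.88 (SE 0.41, edgeR adjusted p = 0.0612) over the 5 days and did not pass the test. Hoxd genes together held 8.52 ± 1.68% of the summed Hox level at day 2 of MyoD alone, 11.4 ± 2.90% at day 2 with F/R/C, 13.9 ± 8.66% at day 10 of MyoD alone and 29.8 ± 10.1% at day 10 with F/R/C.

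Hoxd1, the 3′ end of its cluster, was low everywhere. With MyoD alone it had 0 reads in all 3 day 2 libraries and 0, 1 and 2 at day 10. With F/R/C it had 2, 0 and 6 reads at day 2, 6, 9 and 11 at day 4, and 17, 22 and 27 at day 10. At day 10 its level was 0.614, 0.949 and 0.867 scaled TPM, at least 6.06-fold higher than with MyoD alone (edgeR adjusted p = 0.00107), taking 3 reads per library as the floor of the MyoD group.

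At the digit end, Hoxd11 fell with F/R/C in 15 of 15 same-day, same-number pairs, with means of 0.366 against 1.43 scaled TPM over the 5 days (log2 fold change −1.91, SE 0.49, edgeR adjusted p = 0.00113). Hoxd12 was at 0.263 against 1.06 (−1.95, SE 0.63, edgeR adjusted p = 0.00852). At day 10 Hoxd13 was at 1.91, 3.23 and 27.7 with MyoD alone and at 0.703, 0.479 and 1.99 with F/R/C, a log2 fold change of −3.21 (SE 1.07, edgeR adjusted p = 0.0179). MyoD replicate 3 was far above the other two, and the groups overlapped. Without it the Hoxd13 difference was −1.02 (edgeR adjusted p = 0.47), that of Hoxd11 at day 10 was −1.14 (edgeR adjusted p = 0.46), and that of Hoxd12 over the mean was −1.24 (edgeR adjusted p = 0.073).

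That library was also high for 2 limb genes, Tbx4 at 9.56 and Lmx1b at 10.2 scaled TPM, against 1.84 and 0.840 for Tbx4 and 2.24 and 1.04 for Lmx1b in replicates 1 and 2. Its summed fibroblast genes were at 5546, beside 5384 and 1413. Within that list, Col1a1 and Col1a2 were highest in replicate 1 and all the other genes in replicate 3. Dcn was at 27.6 in replicate 3, against 1.73 and 0.263 in replicates 1 and 2.

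At day 10 alone, the falls with F/R/C included Hoxa3 (log2 fold change −2.67, SE 0.97, edgeR adjusted p = 0.0266) and Hoxa5 (−2.52, SE 1.00, edgeR adjusted p = 0.0431). Hoxa3 and Hoxa5 were not called without replicate 1 of MyoD alone, at −1.44 and −1.53 (edgeR adjusted p = 0.27 for each). The day 10 count of 11 fell to 3 without F/R/C replicate 2, and to 5 without F/R/C replicate 3 or without MyoD replicate 1.

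Several high trunk genes did not overlap at day 10 and still missed the threshold. Hoxb9 was at 13.8, 15.7 and 9.89 scaled TPM with F/R/C and at 38.1, 24.5 and 27.6 without (log2 fold change −1.02, SE 0.69, edgeR adjusted p = 0.247). Hoxc6 was at 13.4 to 16.7 against 28.6 to 36.7 (−0.98, SE 0.45, edgeR adjusted p = 0.0817). For the change in the F/R/C difference from day 2 to day 10, edgeR called 0 of 38 Hox genes, with 2 at an unadjusted p under 0.05, where 6.01% of all tested genes were called, 2.24% higher and 3.77% lower. Fibroblast genes differed in the same comparison, with sums of 474 to 2253 with F/R/C and 1413 to 5546 without, and their part in the Hox differences was not tested.

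**Figure D4:**
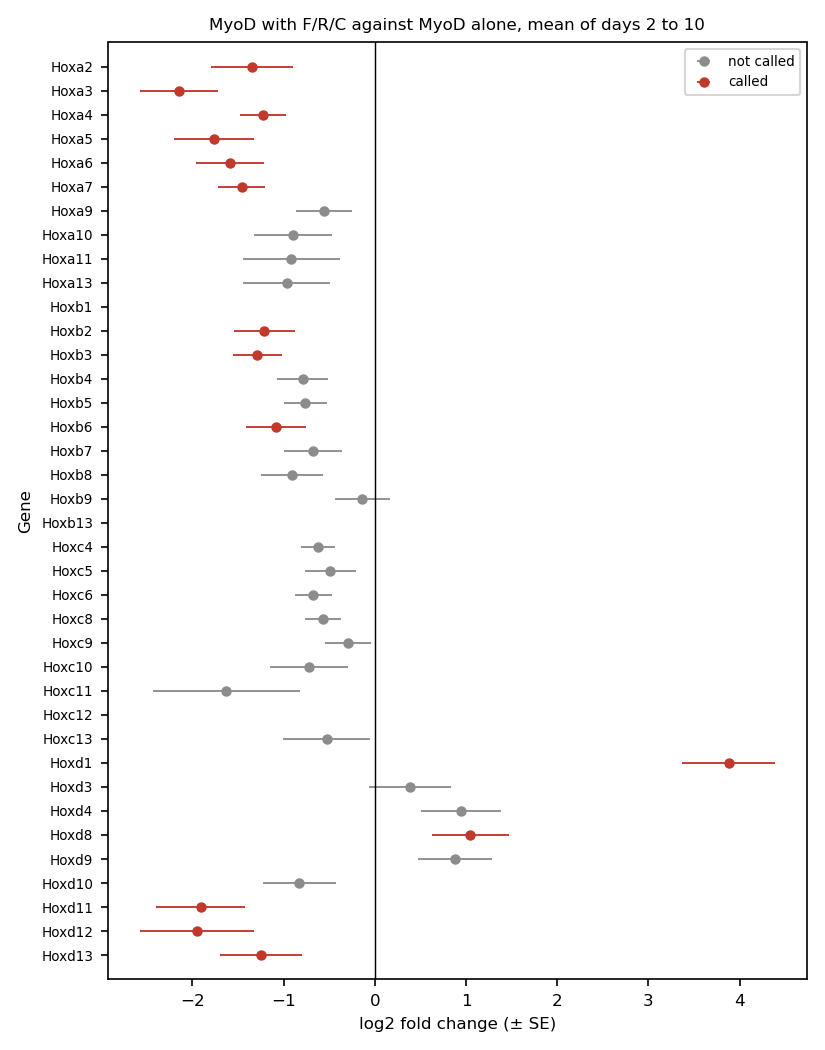
Log2 fold change of 38 Hox genes (rows) for MyoD with F/R/C against MyoD alone, mean of 5 days, with bars of 1 SE and called genes in red. Hoxa2 to Hoxa7 lie left of −1 and Hoxd1 and Hoxd8 right of 1. Hoxb1 was not tested, and Hoxb13 and Hoxc12, with no reads on some days, carry no point. The size for Hoxd1 rests on groups at or near 0 reads and is not a measure of its fold.

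Established bulk iMPCs were compared with day 10 F/R/C cells. Of 38 Hox genes, 0 were higher and 2 were lower in iMPCs, where 9.57% of all tested genes were called, 3.33% higher and 6.24% lower. Hoxb5 was at 0.549, 0.170 and 0.795 scaled TPM against 2.92, 2.12 and 2.01, with no overlap (log2 fold change −2.04, SE 0.56, edgeR adjusted p = 0.00891). Hoxd1, with 7, 2 and 9 reads against 17, 22 and 27, fell by 2.42 on the log2 scale (SE 0.79, edgeR adjusted p = 0.0298). Without iMPC replicate 2 neither was called (edgeR adjusted p = 0.057 and 0.12).

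Against MEFs, bulk iMPCs had 16 Hox genes lower and 2 higher, where 35.5% of all tested genes were called, 16.2% lower and 19.2% higher. Hoxb3 was at 1.27, 1.53 and 2.21 scaled TPM against 14.2, 24.2 and 18.6 (log2 fold change −3.58, SE 0.65, edgeR adjusted p = 2.82e-05). Hoxb5 fell from 4.97, 8.30 and 8.64 in MEFs (−3.57, SE 0.58, edgeR adjusted p = 6.36e-06), and Hoxb6 from 13.1, 33.4 and 23.4 to 1.34, 0.779 and 1.76 (−3.73, SE 0.80, edgeR adjusted p = 0.000228). All 3 were without overlap.

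Hoxd12 and Hoxd11 fell by 5.93 (SE 1.56, edgeR adjusted p = 0.00225) and 4.55 (SE 1.15, edgeR adjusted p = 0.00133) on the log2 scale, and without MEF replicate 1 they were at −2.96 and −2.18 and were not called. Hoxb13, the most posterior Hoxb gene, had 0 reads in MEFs and 17, 41 and 12 in iMPCs, at least 3.41-fold higher (edgeR adjusted p = 0.0154), and at least 2.07-fold without iMPC replicate 2. The other member that was higher was Hoxa4.

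Primary myoblasts carried another set of Hox genes than MEFs. In bulk myoblasts 17 members were lower and 3 were higher than in MEFs, where 29.2% of all tested genes were called, 13.9% lower and 15.3% higher. The 3 that rose are neighbours at the posterior end of the Hoxc cluster, which is used in the hindlimb and tail. Hoxc11 had 520, 99 and 558 reads, or 22.6, 2.21 and 18.3 scaled TPM, and at most 2 reads in any MEF library, at least 80.8-fold higher (edgeR adjusted p = 7.38e-05). Hoxc12 had 88, 10 and 39 reads, at least 9.85-fold higher (edgeR adjusted p = 0.0229). Hoxc13 was at 24.0, 3.60 and 10.4 against 0.190, 0.136 and 0.429. Hoxc12 was not called by DESeq2, with any 1 MEF library left out or without myoblast replicate 1 (edgeR adjusted p from 0.054 to 0.075 for these 4), and its bound was 4.39-fold without the last.

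The digit end of Hoxd was at the floor in the same cells. Hoxd13 had 0 reads in all 6 myoblast libraries and was at least 251-fold lower in bulk myoblasts than in MEFs (edgeR adjusted p = 6.65e-06). Hoxd12 was at least 72.7-fold lower (edgeR adjusted p = 0.000361), Hoxd11 at least 40.5-fold (edgeR adjusted p = 3.75e-05) and Hoxd10 at least 35.1-fold (edgeR adjusted p = 1.25e-05). All 4 bounds rested on MEF replicate 1. Without it these genes were still called and the bounds were 57.9-fold for Hoxd13, 9.41-fold for Hoxd12, 8.01-fold for Hoxd11 and 6.83-fold for Hoxd10. The other members called lower included Hoxb5 to Hoxb9, whose sum was 0.727, 9.33 and 1.05 scaled TPM in bulk myoblasts and 69.1, 196 and 131 in MEFs, and Hoxc8, at 0.672, 1.62 and 2.01.

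Hoxa9 and Hoxa10, which pattern the lower trunk and proximal limb, were high in myoblasts. These levels sum all transcripts of a gene. Over all 45 libraries together, most Hoxa10 reads were on a transcript not annotated as protein-coding (5769 reads). Its protein-coding transcripts had 2322 and 770. For Hoxa9 the main protein-coding transcript had 4806 reads and the main other one 1488. Hoxa10 was at 24.0, 21.8 and 24.4 scaled TPM in bulk and 20.0, 21.5 and 16.8 in sorted myoblasts. In MEFs it was at 25.2, 3.02 and 6.01, so the groups overlapped, and the difference was not called (log2 fold change 1.07, SE 0.93, edgeR adjusted p = 0.368). Myoblast replicate 2 was the lowest of its group for Hoxc11, Hoxc12 and Hoxc13 and the highest for Hoxd8, at 15 against 0.193 and 0.694.

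The question put to iMPCs was how their Hox set compared with that of myoblasts. In bulk, 10 Hox genes were higher in iMPCs and 5 were lower, where 19.6% of all tested genes were called, 10.9% higher and 8.7% lower. In sorted Pax7-GFP+ cells, 12 were higher and 5 were lower, where 30% were called, 12.4% higher and 17.6% lower. The median log2 fold change over the Hox genes was 0.54 in bulk and 0.63 in sorted cells, beside 0.01 and −0.07 over all genes.

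The posterior Hoxc genes separated the 2 sources. Hoxc11 had 0, 0 and 1 reads in bulk iMPCs and 0 in all sorted iMPCs, at least 182-fold lower than in bulk myoblasts (edgeR adjusted p = 5.06e-05) and at least 31.5-fold lower than in sorted ones (edgeR adjusted p = 0.000178). Hoxc13 was at least 207-fold lower in bulk (edgeR adjusted p = 6.51e-06) and at least 39.9-fold lower in sorted cells (edgeR adjusted p = 1.83e-05). Hoxc12 was at least 22.1-fold lower in bulk (edgeR adjusted p = 0.0123) and at least 6.22-fold lower in sorted cells (edgeR adjusted p = 0.0277), a call that DESeq2 did not make in either. Without bulk myoblast replicate 1 the bulk bounds were 120-fold for Hoxc13 and 9.87-fold for Hoxc12.

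The sorted bounds rested on myoblast replicate 3. Without it they were 7.40-fold for both Hoxc11 and Hoxc13, which were still called, while Hoxc12 was not called (edgeR adjusted p = 0.19). Hoxc12 was also not called in sorted cells with any 1 sorted iMPC library left out (edgeR adjusted p from 0.061 to 0.065). Sorted myoblast replicate 2 had 3 Hoxc11 reads, against 62 and 227 in the other two.

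Hoxd13 went the other way. It was at 1.87, 8.70 and 0.0859 scaled TPM in bulk iMPCs and at 0.706, 1.26 and 0.656 in sorted iMPCs. With 0 reads in every myoblast library, it was at least 41.6-fold higher in bulk (edgeR adjusted p = 0.000311) and at least 9.09-fold higher in sorted iMPCs (edgeR adjusted p = 0.00298). Among bulk iMPCs, replicate 2 was highest and replicate 3 lowest, with 488 and 5 reads. Without replicate 2 the bulk bound was 11.3-fold (edgeR adjusted p = 0.003). Summed fibroblast genes were also highest in bulk iMPC replicate 2, at 2092 against 1255 and 1198 in replicates 1 and 3. Of these genes Dcn was at 477 there, against 22.4 and 18.4, while Thy1 and Lum were lowest there. Their part in the Hoxd13 level was not tested. Hoxd10 and Hoxd11 were at least 4.05-fold (edgeR adjusted p = 0.00555) and 1.69-fold (edgeR adjusted p = 0.0355) higher in bulk iMPCs. Without replicate 1 the Hoxd10 bound was 2.51-fold, and the Hoxd11 reads came from that library alone (25, 0 and 0), without which the difference was 0.00.

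Hoxc8, a thoracic gene, was at 9.34, 8.36 and 13.6 scaled TPM in bulk iMPCs against 0.672, 1.62 and 2.01 in bulk myoblasts, with no overlap. In sorted cells it was at 18.7, 10.8 and 37.0 against 0.613, 0.0557 and 0.828, a log2 fold change of 5.47 (SE 0.56, edgeR adjusted p = 5.21e-09). The remaining called members in bulk included Hoxb7, Hoxb8 and Hoxb9. Hoxb9 was at 18.0, 8.83 and 11.7 against 0.0355, 3.40 and 0.480. In sorted iMPCs Hoxb9 was at 32.5, 2.31 and 3.91 against 1.99, 0.555 and 0.117.

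Hoxb13 was high in a single sorted iMPC library, with 449, 0 and 6 reads in replicates 1, 2 and 3. Its difference from sorted myoblasts was 6.85 on the log2 scale (SE 1.60, edgeR adjusted p = 0.000951), and 1.41 (edgeR adjusted p = 0.46) without that library. Fibroblast genes also separated bulk iMPCs from bulk myoblasts, with 9 of 9 called higher and sums of 1198 to 2092 against 202 to 346. In sorted cells 2 of 9 were called higher, with sums of 225 to 600 against 98.3 to 315, and 7 of 7 differentiated muscle genes were lower in iMPCs. Their part in the Hox differences was not tested. Tested as a difference between the sorted and bulk comparisons, 2 Hox genes were called higher and 1 lower, where 24.1% of all tested genes were called, 9.87% higher and 14.2% lower.

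**Figure D5:**
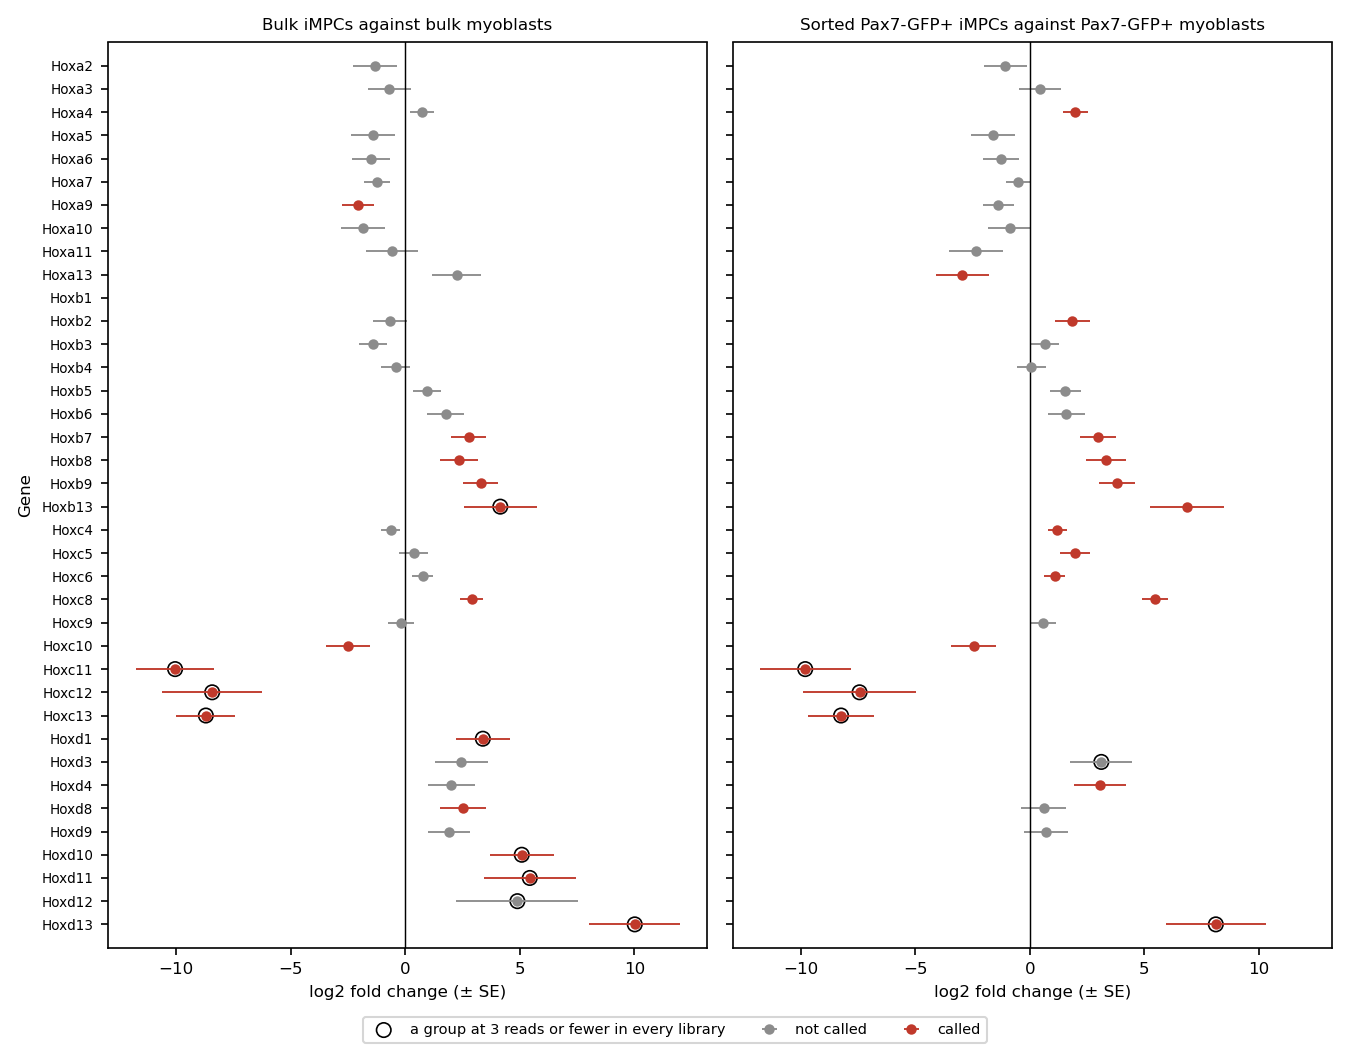
Log2 fold change of 38 Hox genes (rows) between iMPCs and myoblasts, in bulk (left) and sorted Pax7-GFP+ cells (right), with bars of 1 SE and called genes in red. Black rings mark a group at 3 reads or fewer in every library, where the fitted size is not a measure of the fold, and genes at the floor in both groups or untested carry no point. Hoxb7 to Hoxb9, Hoxc8 and Hoxd13 lie right of 0 and Hoxc10 to Hoxc13 left of 0 in both panels.

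Sorted and bulk cells of each source were then compared. Between sorted and bulk myoblasts edgeR called 0 of 38, with 2 at an unadjusted p under 0.05, where 6.23% of all tested genes were called (2.2% higher, 4.03% lower), and DESeq2 called 0. Between sorted and bulk iMPCs 7 were higher and 2 were lower, where 30.3% of all tested genes were called, 9.88% higher and 20.5% lower. Cell type markers differed in the same comparison. In sorted iMPCs 7 of 9 fibroblast genes were lower, with sums of 225 to 600 against 1198 to 2092, and 6 of 7 differentiated muscle genes were lower, with sums of 443 to 835 against 10486 to 14554. Their part in the Hox differences was not tested. Hoxa3 was at 5.85, 3.91 and 4.10 scaled TPM in sorted iMPCs and at 0.417, 1.17 and 1.37 in bulk, with no overlap (log2 fold change 2.57, SE 0.96, edgeR adjusted p = 0.0269). Hoxa7 was at 15.9, 9.71 and 13.0 against 2.60, 7.57 and 5.40, again with no overlap (1.64, SE 0.57, edgeR adjusted p = 0.0178).

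Without bulk iMPC replicate 1 these were 2.22 (edgeR adjusted p = 0.11) and 1.34 (edgeR adjusted p = 0.096), and the count of 9 called members was 3. Hoxd10 was at least 3.51-fold lower in sorted iMPCs (edgeR adjusted p = 0.0137), and at least 2.18-fold and not called without that library (edgeR adjusted p = 0.067). Hoxc5 rose by 1.88 on the log2 scale (SE 0.63, edgeR adjusted p = 0.0147). Both genes overlapped between the groups. Hoxb13 (3.34, SE 1.24, edgeR adjusted p = 0.0282) turned to −2.11 without sorted replicate 1. Hoxa13 (−3.14, SE 1.15, edgeR adjusted p = 0.024) turned to 0.16 without bulk replicate 2. The sorted libraries also carry another fragment-length setting: a long transcript's length minus its effective length, plus 1, was 152.81 bases in MEFs and bulk myoblasts and 180.03 in both sorted groups. The effects of sorting and of that setting cannot be told apart.

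The iMPC libraries differed in their posterior Hoxa genes. Hoxa10 was at 1.85, 15.9 and 0.489 scaled TPM in bulk iMPCs and at 2.14, 29.1 and 0.270 in sorted ones. Replicate 2 was highest in both groups. Hoxa9 was at 1.66, 7.09 and 1.80 in bulk iMPCs, below 12.5, 23.2 and 24.9 in bulk myoblasts, and it was among the 5 members lower in bulk iMPCs. In sorted iMPCs it was at 3.46, 23.5 and 2.41, and the difference from sorted myoblasts was not called (edgeR adjusted p = 0.0915).

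Across the 39 genes, the profile of log2 levels was compared between groups by Pearson's r, as a description, since genes in a cluster are not independent. The mean r of single libraries with the MEF mean was 0.834 for MEFs against the other 2 MEF libraries, 0.913 at day 2 and 0.871 at day 10 of MyoD alone, 0.915 and 0.772 at days 2 and 10 with F/R/C, 0.694 for bulk iMPCs and 0.546 for sorted iMPCs. Bulk and sorted myoblasts were at 0.157 and 0.212. With the bulk myoblast mean, r was 0.348 for bulk iMPCs (0.295 to 0.435), 0.410 for sorted iMPCs (0.312 to 0.576) and 0.826 for bulk myoblasts against each other. With the sorted myoblast mean, sorted iMPCs were at 0.393, 0.721 and 0.324 in replicates 1, 2 and 3, and sorted myoblasts against each other averaged 0.750 (0.665 to 0.874), so sorted iMPC replicate 2 lay within their range.

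Other position genes were counted from a list of 22 limb, axial and craniofacial regulators, 20 of them tested. Against bulk myoblasts, 12 of 20 were higher in bulk iMPCs and 1 was lower, beside 10.9% higher and 8.7% lower of all tested genes. In sorted cells 10 were higher and 3 lower, beside 12.4% and 17.6%. Against MEFs, bulk myoblasts had 3 higher and 9 lower, beside 15.3% and 13.9%. The limb T-box pair moved in opposite directions. Tbx4, the hindlimb gene, was at 10.5, 4.78 and 6.84 scaled TPM in bulk myoblasts against 0.700, 0.196 and 2.13 in MEFs (log2 fold change 2.93, SE 1.05, edgeR adjusted p = 0.0222). Tbx5, its forelimb counterpart, was at 0.0198, 0.0588 and 0, at least 88.1-fold lower than in MEFs (edgeR adjusted p = 9.49e-07) and at least 53.0-fold without MEF replicate 1. Neither overlapped. This pair alone does not show which limb, if any, the myoblasts came from, and their source was not tested.

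In iMPCs Tbx4 varied between libraries, at 0.321, 1.86 and 5.16 in bulk and 0.220, 5.03 and 11.4 in sorted cells. Alx1, a craniofacial and limb bud homeobox gene, was at 99.2, 69.9 and 5.18 scaled TPM in sorted iMPCs and in sorted myoblasts averaged 0.183 (log2 fold change 8.61, SE 1.46, edgeR adjusted p = 1.48e-05).

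Hox proteins bind DNA with Pbx, Meis and Pknox partners, of which 9 were tested. At day 10, F/R/C against MyoD alone had 1 of 9 higher and 3 lower, beside 9.91% higher and 13.4% lower of all tested genes. Pknox2 was at 42.8, 51.2 and 36.2 scaled TPM against 16.2, 23.3 and 7.14 (log2 fold change 1.77, SE 0.39, edgeR adjusted p = 0.000612), and Meis3 at 8.24, 6.68 and 9.38 against 26.7, 19.0 and 22.4 (−1.33, SE 0.33, edgeR adjusted p = 0.00183), both without overlap. Pknox2 was already at 47.2 after 2 days of MyoD alone against 0.822 in MEFs (5.64, SE 0.49, edgeR adjusted p = 1.78e-10). Between bulk iMPCs and bulk myoblasts 1 partner of the 9 was higher, Meis2, and 1 lower, Meis3. These counts are near the 10.9% higher and 8.7% lower of all tested genes.

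Polycomb and trithorax group genes, which keep Hox clusters silent or active, were counted together with other chromatin regulators of the clusters, such as the insulator protein gene Ctcf, and 20 were tested. At day 10, 3 were higher and 0 lower with F/R/C, near the 9.91% of all tested genes called higher. They were Ezh2, the histone H3 lysine 27 methyltransferase, Jarid2, a partner of Ezh2 in its complex, and Cbx2, a subunit of the other Polycomb complex. Ezh2 was at 58.0, 65.4 and 35.2 scaled TPM against 25.3, 12 and 21.3 (log2 fold change 1.63, SE 0.31, edgeR adjusted p = 0.000139), with no overlap. Between sorted iMPCs and sorted myoblasts 2 were higher, Ezh2 and Cbx2, and 1 lower, beside 12.4% and 17.6% of all tested genes. Ezh2 averaged 183 against 48.4 scaled TPM (1.84, SE 0.31, edgeR adjusted p = 1.5e-05). The lower one, the Polycomb gene Cbx7, was at 4.73, 2.42 and 1.88 against 9.57, 10.7 and 6.96 (−1.51, SE 0.46, edgeR adjusted p = 0.00697).

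Retinoic acid induces anterior Hox genes in the embryo, and 9 genes of its synthesis, breakdown and reception and of Gdf11 were tested. At day 10, 4 were higher and 2 lower with F/R/C, beside 9.91% and 13.4% of all tested genes. Rarb, a receptor that is itself a retinoic acid target, was at 12.5, 8.74 and 10.7 scaled TPM against 0.610, 0.771 and 1.49 (log2 fold change 3.92, SE 0.61, edgeR adjusted p = 1.28e-05). The enzymes that make retinoic acid differed in direction. Aldh1a2 was at 25.0, 24.0 and 17.1 against 3.17, 3.72 and 4.77 (2.67, SE 0.72, edgeR adjusted p = 0.00359). Aldh1a1 was at 0.706, 0.109 and 0.0820 against 5.59, 3.89 and 1.89 (−3.77, SE 0.94, edgeR adjusted p = 0.00194). Cyp26a1, which breaks retinoic acid down, averaged 1.74 against 0.129 (3.85, SE 0.87, edgeR adjusted p = 0.000807). None of these 4 overlapped.

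Transcripts that lie within or beside the clusters were counted from a list of 24, of which 15 were tested. At day 10, 6 were lower and 1 was higher with F/R/C, beside 13.4% and 9.91% of all tested genes. The one that was higher was Haglr, the antisense transcript next to Hoxd1, at 0.688, 1.13 and 0.806 scaled TPM against 0, 0.103 and 0.0747, at least 3.39-fold (edgeR adjusted p = 0.00153). Hotair, a long noncoding RNA between Hoxc11 and Hoxc12, was at 2.64, 0.332 and 2.00 in bulk myoblasts, 0.656, 0 and 3.83 in sorted myoblasts and 0 in MEFs and in both iMPC groups. Bulk iMPCs were at least 22.8-fold below bulk myoblasts (edgeR adjusted p = 0.00477). For 18 of the 39 Hox genes, reads were divided with another gene's transcripts, Hoxa3, Hoxc8 and Hoxd8 among them. A gene was counted so when its summed count was not whole, to within 0.001 reads, in at least 1 library. Whether reads were assigned by strand is not given in the sources used here, so a Hox gene and its antisense partner may share reads.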

How the data were processed

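Bulk RNA-seq was analysed in 45 libraries, grouped by their titles. Libraries were poly-A selected and stranded (TruSeq) and were read from a single end, per the labels' protocols. Trimmomatic 0.36, kallisto 0.44 and GRCm38.p6 are named, without roles, per the submitters' processing notes. The deposited tables give an estimated count and TPM, as kallisto writes them, per the file headers, for each of 121843 transcripts, 121104 of which were matched to GENCODE genes. Here the authors' estimated counts were summed per gene and rounded. Genes that passed edgeR's expression filter (17325) were fitted in 1 quasi-likelihood model of all 45 libraries (edgeR 4.0.16, R 4.3.3, TMM scaling, 30 residual degrees of freedom), with 14 comparisons and 2 differences of effects, checked on simulated counts.

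The Hox genes and the other gene lists were chosen with earlier results of these data known. Full statistics are given for at most 6 called members per comparison, those with the largest fold change, and for at most 3 called genes per other list, with Hoxd8, Hoxb9 and Hoxc6 at day 10, Hoxa10, Aldh1a2 at day 10, and genes of libraries that stood apart chosen after their values were seen. Groups with at most 3 reads in every library get a lower bound of the fold. Same-numbered libraries of the 2 treatments deviated together at day 2 (r from 0.346 to 0.375), and the replicate block gave 0 calls there as well. At day 4 r ran from 0.241 to 0.332 and at day 6 from 0.223 to 0.362, and the lowest values at days 8 and 10 were 0.0791 and 0.0617. Over the 5 days, 26 of 30 libraries correlated best with their own number. The main fit had no replicate term, so the mean of 5 days treats same-numbered libraries as independent.

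Alternatives were RLE scaling, DESeq2 1.42.0, no filter, counts rebuilt from TPM and gene length, protein-coding transcripts alone, a replicate block, fits of the compared groups alone, no minimum fold change and each library left out. Values of some genes are not reported here.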

Additional observations from a re-analysis of the deposited data

Results flagged for a closer look

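The iMPC-to-myoblast difference was itself different between sorted and bulk cells for 3 Hox genes, by a contrast of the 2 differences (edgeR), where 24.1% of all 17325 tested genes were called (9.87% higher, 14.2% lower). Hoxc8 was higher in iMPCs in both, by 2.58 more on the log2 scale in sorted cells (SE 0.69, edgeR adjusted p = 0.00471), with sorted myoblast replicate 2 lowest at 0.0557 scaled TPM. Hoxc4 differed by 1.83 (SE 0.59, edgeR adjusted p = 0.0169), with 7.18, 2.03 and 12.1 in sorted iMPCs, 2.76, 1.80 and 4.59 in sorted myoblasts, 2.44, 2.00 and 5.29 in bulk iMPCs and 6.04, 3.92 and 6.37 in bulk myoblasts. Hoxa13 differed by −5.19 (SE 1.57, edgeR adjusted p = 0.011), and by −1.93 (edgeR adjusted p = 0.33) without bulk iMPC replicate 2, whose level was 7.49 against 0.522 and 0.0377 in the other bulk iMPC libraries. Hoxa13 was also lost without sorted myoblast replicate 2 (−3.92, edgeR adjusted p = 0.06), and Hoxc4 without that library (1.57, edgeR adjusted p = 0.053) or without sorted iMPC replicate 3 (1.18, edgeR adjusted p = 0.12). When the fit held just these 4 groups, none of the 3 passed (edgeR adjusted p from 0.12 to 0.17). This contrast was added after the files had been read.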

How the results depend on the processing

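Of 61 single-gene results given with full statistics, 25 kept their direction and side of the threshold under every alternative run and 36 lost their call under at least 1. All 61 kept both under RLE scaling.

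Without a filter on low counts, the number of Hox genes called was 1 for MyoD alone at day 2 against MEFs, 7 for F/R/C against MyoD alone at day 10 and 1 for iMPCs against day 10 F/R/C cells. With a fit of the compared groups alone it was 0 and 1 at day 2 and 0 at day 10 of MyoD alone (MyoD alone, F/R/C and MyoD alone against MEFs), 4 for iMPCs against day 10 F/R/C cells, 3 and 4 for iMPCs against myoblasts in bulk and sorted cells, and 3 for sorted against bulk iMPCs. Protein-coding transcripts alone gave 6 at day 10 of F/R/C against MyoD alone, and leaving out all replicate 1 libraries of the time course, chosen after seeing the data, gave 5. DESeq2 gave 4 for iMPCs against day 10 F/R/C cells. Counts rebuilt from TPM and length gave 1 between sorted and bulk myoblasts. The cause was not tested.

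With 1 library left out at a time, the counts ran from 0 to 6 and 0 to 4 at day 2 against MEFs (MyoD alone, F/R/C), 1 to 3 and 11 to 16 at day 10, 0 to 0 and 3 to 8 for F/R/C against MyoD alone at days 2 and 10, and 13 to 17 over the mean of 5 days. They ran from 0 to 4 for iMPCs against day 10 F/R/C cells, 12 to 16 against MEFs, 8 to 19 and 9 to 21 against myoblasts (bulk, sorted), 3 to 10 and 0 to 3 for sorted against bulk cells (iMPCs, myoblasts) and 17 to 22 for myoblasts against MEFs. The count for bulk iMPCs against myoblasts was 8 without bulk myoblast replicate 3, and in sorted cells it was 9 without iMPC replicate 3 and 11 without iMPC replicate 1 or myoblast replicate 2. The results that turned sign were both between sorted and bulk iMPCs: Hoxb13 ran from −2.11 (without sorted replicate 1) to 4.09, and Hoxa13 from −4.14 to 0.16 (without bulk replicate 2). The cause was not tested.

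When replicate numbers entered as a block, counts stayed within 1.5 times, for example 13 at day 10 and 16 over the mean of 5 days for F/R/C against MyoD alone. Hoxb13 between sorted and bulk iMPCs lost its call under the block (2.08, edgeR adjusted p = 0.21). At day 2, 6 of 6 libraries correlated best with their own number in the other treatment, and at day 10, 4 of 6.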
